A study of Arabidopsis thaliana with 30 samples.

Results

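LBD16, LBD18, LBD29, LBD33 and GATA23 are 5 transcription factor genes known for their roles in the cells that found lateral roots, and they were followed here in detached Arabidopsis leaves. They were taken by locus identifier (AT2G42430, AT2G45420, AT3G58190, AT5G06080 and AT5G26930) from tables of 37686 genes, with no cut on their values. The choice was made with earlier results of these data known. RNA came from wild-type Col-0 plants that had been grown for 12 d on 1/2 MS medium with sucrose at 22 °C and 16 h of light. Leaf blades, taken from the first rosette pair, were cut off where they meet the petiole and kept under 24-h light at 22 °C on B5 medium lacking sucrose, and the RNA was that of the tissue at the wound. The NPA groups had NPA in the medium, a compound that blocks polar auxin transport, and its concentration is not given in the sources used here. The mock groups had the same medium with no NPA. Both were sampled at 6 h, 12 h and 24 h and then daily until 5 d (7 times after cutting), and T0 was sampled at detachment, before any culture. Each of the 15 groups held 2 libraries, 30 in all, all of the same wild type.

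In root formation, auxin releases auxin response factors (ARFs) from their Aux/IAA repressors, and the freed ARFs turn on genes of the LBD family, plant-specific DNA-binding proteins. In lateral roots LBD16 and LBD29 are targets of ARF7 and ARF19, LBD16 acts before the asymmetric division of founder cells, and LBD18 and LBD33 act in the steps that follow. GATA23 is a zinc-finger factor that specifies founder cells under the control of the repressor IAA28. In leaf explants the homeobox protein WOX11 is known to switch on LBD16 as founder cells become root primordium cells.

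All 5 genes had 1 intron and 2 exons in the RefSeq annotation of build TAIR10.1, and no annotated gene overlapped any of them. LBD16 lies on the plus strand of chromosome 2 at 17663353 to 17665337 and encodes 245 residues. LBD18 is on the same chromosome and strand at 18718348 to 18720729, with 262 residues. LBD29 is on the minus strand of chromosome 3 at 21548484 to 21549572, with 218 residues. LBD33 is on the minus strand of chromosome 5 at 1830671 to 1831467, with 177 residues. GATA23, the shortest protein at 120 residues, is on the plus strand of chromosome 5 at 9479424 to 9480200.

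The sequences before the annotated starts are shown because ARFs bind TGTC-containing auxin response elements. The letters TGTCTC and TGTCGG, which share a TGTC core, were searched on both strands in the bases before each start. In the 300 bases before the start, LBD33 and GATA23 held a match, as did 17.3% of the 27443 protein-coding genes (TGTCTC in 13% and TGTCGG in 4.91%). In 1000 bases all 5 held TGTCTC, which 39.6% of the genes also held, and GATA23 alone among the 5 held TGTCGG, which 14.6% of the genes held. Each sequence below is from RefSeq TAIR10.1 and runs 5′ to 3′ on the strand of its gene, with the motif in capitals, as TGTCTC or TGTCGG where it is on the gene's own strand and as GAGACA or CCGACA where it is on the other. No matches shown overlap, and a match is a run of letters, not a measured binding site.
LBD16, chr2:17662667-17662696, plus strand: tccattattgatTGTCTCcttagaatccaa
LBD18, chr2:18717373-18717402, plus strand: atacgcgtggagGAGACAttgaggaagcac
LBD29, chr3:21550156-21550185, minus strand: atgttgtagtttGAGACAgaataatgatga
LBD33, the 300 bases before the start, chr5:1831468-1831767, minus strand: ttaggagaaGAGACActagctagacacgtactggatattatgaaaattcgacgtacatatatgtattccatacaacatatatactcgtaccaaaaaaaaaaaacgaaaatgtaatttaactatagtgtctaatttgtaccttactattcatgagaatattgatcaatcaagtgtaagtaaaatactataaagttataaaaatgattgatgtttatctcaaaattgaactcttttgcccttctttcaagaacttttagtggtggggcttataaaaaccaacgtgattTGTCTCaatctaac
GATA23, the 300 bases before the start, chr5:9479124-9479423, plus strand: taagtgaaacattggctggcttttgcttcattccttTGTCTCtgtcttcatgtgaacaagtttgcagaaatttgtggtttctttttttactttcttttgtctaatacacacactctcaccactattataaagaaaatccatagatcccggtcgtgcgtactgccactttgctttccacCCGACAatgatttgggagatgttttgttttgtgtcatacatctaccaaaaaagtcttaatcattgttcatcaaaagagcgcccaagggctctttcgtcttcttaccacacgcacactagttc
The motif of LBD16 began 674 bases before its start, that of LBD18 963 bases and that of LBD29 601 bases. In LBD33 the matches began 291 and 14 bases before the start, and in GATA23 the TGTCTC match began 264 bases and the TGTCGG match 122 bases before it.

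Values were the authors' TPM (transcript shares scaled to a sum of 1000000), a share of the transcripts of a library per length of gene, so levels can be set side by side across genes but not as molecules per cell. The files hold no counts, so the depth is unknown, and 17201 to 19288 genes reached 1 TPM in a library. The labels leave unsaid whether the paired libraries of a group are separate sets of plants, and the p-values here rest on a spread that may be technical. The T0 libraries agreed less with each other (r of 0.888 across genes on the log2(TPM + 1) scale) than the 2 libraries of the other groups (0.964 to 0.988). The 6 leaf mesophyll markers were present in all groups, as the leaf label has it. Relative to T0 the median of all genes was 0.07 to 0.37 higher in mock on the log2(TPM + 1) scale, 0.01 to 0.07 higher with TMM factors and between -0.07 and -0.03 with quantile normalization. Calls come from 1 limma model over all 30 libraries and 20654 genes with at least 1 TPM in at least 2 libraries, and a gene was called where the Benjamini-Hochberg adjusted p was under 0.05. LBD16, GATA23 and LBD33 passed this filter and LBD18 and LBD29 did not, so an exact permutation test over libraries (5 genes, raw p) covers all 5. LBD33 passed only through mock at 5 d. LBD16 and GATA23 reached 1 TPM in all 14 mock libraries and in no NPA or T0 library, so they too were kept through the group where they are high. With no filter, all their calls of NPA against mock and mock against T0 remained, the highest adjusted p being 0.0412 by limma (GATA23, NPA against mock at 24 h).

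LBD16, which acts in founder cells before they divide, was higher in mock than in T0 at every time. Its TPM in mock was 2.50 and 4.51 at 6 h, 3.19 and 4.20 at 12 h, 3.17 and 3.77 at 24 h, 6.99 and 4.03 at 2 d, 5.65 and 7.10 at 3 d, 11.38 and 10.67 at 4 d and 11.79 and 13.10 at 5 d, against 0.04 in each T0 library. Every mock library lay far above both T0 libraries, those of 6 h to 24 h near each other and those of 4 d and 5 d highest. The means were 3.5 ± 1.42 TPM at 6 h and 12.4 ± 0.926 TPM at 5 d in mock (SD, n = 2). The fitted difference from T0 was 2.08, 2.17, 2.1, 2.61, 2.82, 3.53 and 3.69 on the log2(TPM + 1) scale from 6 h to 5 d (SE 0.22). All 7 were called by limma, with an adjusted p of 2.6e-06 at 6 h and 4.36e-10 at 5 d, where 26.5%, 17%, 32.5%, 33.4%, 39.9%, 39.8% and 42.4% of all genes were called higher from 6 h to 5 d. Fitted on the compared libraries alone, the calls at 6 h and 2 d were lost (adjusted p of 0.116 and 0.0723 by limma, the highest of 39 alternatives each). LBD16 ranked 525, 469, 639, 399, 412, 253 and 301 from the highest of 20654 differences at these times. No step between successive times was called, the largest being 0.71 at 4 d against 3 d (adjusted p = 0.119 by limma), while mock at 5 d exceeded mock at 24 h by 1.59 (adjusted p = 5.53e-05 by limma), where 13.7% of all genes were called higher. The exact permutation test of the 14 mock against the 2 T0 libraries gave a difference of 2.71 with the smallest p its 120 arrangements allow, 0.00833, and 0.0667, again the smallest, without either T0 library.

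With NPA, LBD16 stayed below 1 TPM in all 14 libraries. The values were 0.13 and 0.52 TPM at 6 h, 0.03 and 0.06 at 12 h, 0.21 and 0.12 at 24 h, 0.37 and 0.24 at 2 d, 0.92 and 0.81 at 3 d, 0.49 and 0.91 at 4 d and 0.63 and 0.93 at 5 d. The highest NPA library, at 0.93 TPM, was below the lowest mock library, at 2.50 TPM, so the media did not overlap at any time or across times. The NPA mean was 9.27% of the mock mean at 6 h, 1.22% at 12 h, 4.76% at 24 h, 5.54% at 2 d, 13.6% at 3 d, 6.35% at 4 d and 6.27% at 5 d. Differences of NPA from mock were -1.74, -2.16, -1.94, -2.28, -1.98, -2.83 and -2.92 on the log2(TPM + 1) scale (SE 0.22), and all 7 were called by limma, at an adjusted p of 0.000141 at 6 h and 3.16e-08 at 5 d. Among all genes 0.683%, 1.23%, 1.47%, 3.27%, 5.14%, 9.3% and 15.1% were called lower at these times. Fitted on the 4 libraries of a time alone, the calls at 6 h, 12 h, 24 h and 2 d were lost (adjusted p of 0.365, 0.207, 0.0804 and 0.139 by limma, the highest of 39 alternatives each). The mean of the 7 differences was -2.26 ± 0.08 (SE; adjusted p = 1.41e-12 by limma), the 27th lowest of 20654, where 30.6% of all genes were called lower, and the exact permutation test within times gave 7.14e-06, the smallest p its 279936 arrangements allow.

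LBD16 on NPA was called above T0 at 3 d, 4 d and 5 d, but these calls depended on the processing. Relative to T0, NPA was higher by 0.84 at 3 d, 0.70 at 4 d and 0.77 at 5 d, called by limma at an adjusted p of 0.00678, 0.0189 and 0.00952, at times when 27.8%, 27.7% and 31.4% of all genes were called higher. Leaving out T0 replicate 1 or NPA 4 d replicate 2 ended the 4 d call (adjusted p of 0.0619 and 0.161 by limma). Leaving out NPA 5 d replicate 2 ended that at 5 d (0.0806), and all 3 were lost with quantile normalization (0.105 to 0.158 by limma). A pseudocount of 5 also ended all 3 (adjusted p of 0.14, 0.235 and 0.172 by limma). On the compared libraries alone the calls at 4 d and 5 d were lost (0.11 and 0.0633 by limma). At the earlier 4 times the NPA libraries ranged from 0.03 to 0.52 TPM and no difference from T0 was called. From 24 h to 5 d NPA gained 0.61, which was not called (adjusted p = 0.0733) but was in 5 of 39 alternatives, 4 of them without a mock library of 6 h or 2 d (0.00735 to 0.374 by limma). Whether the NPA effect differed between times was not settled. The difference of the 5 d minus 24 h changes, NPA minus mock, was -0.98 ± 0.32 (SE; adjusted p = 0.103), where 4.3% of all genes were called lower. The moderated F test gave 0.129 by limma, where 5.86% of all genes were called, but 0.0358 without mock 6 h replicate 2, 0.0486 without mock 2 d replicate 2 and 0.00145 with a pseudocount of 5 (0.00145 to 0.67 over 39 alternatives). In RNA from whole wound tissue, fewer cells with LBD16 and less LBD16 RNA per cell cannot be told apart, and the same holds for the other genes.

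GATA23, the founder-cell specification factor, was higher in mock at all 7 times too, and at a level that varied little with time. In mock it had 2.36 and 2.63 TPM at 6 h, 2.55 and 3.43 at 12 h, 1.48 and 2.30 at 24 h, 3.65 and 1.74 at 2 d, 2.13 and 1.92 at 3 d, 3.35 and 2.43 at 4 d and 2.19 and 3.39 at 5 d, against 0.00 and 0.11 in T0. The 14 mock libraries thus overlapped across times and lay above both T0 libraries. Differences of mock from T0 were 1.73, 1.91, 1.44, 1.76, 1.52, 1.87 and 1.83 on the log2(TPM + 1) scale (SE 0.27), all called by limma, with the largest adjusted p of 0.000509 at 24 h. On the compared libraries alone the calls at 12 h, 24 h and 2 d were lost (adjusted p of 0.0606, 0.0737 and 0.121 by limma, the highest of 39 alternatives each). No step between successive times was called in either medium. In the order of mock levels, GATA23 at 6 h and 12 h stood beside LBD16 (2.50 and 2.99 TPM for GATA23, 3.5 and 3.69 TPM for LBD16, means of 2), within about the spread of the libraries. At 5 d GATA23 averaged 2.79 TPM and LBD16 12.4 TPM, and their libraries did not overlap.

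On NPA, GATA23 had 0.59 and 0.09 TPM at 6 h, 0.18 and 0.33 at 12 h, 0.32 and 0.24 at 24 h, 0.18 and 0.00 at 2 d, 0.25 and 0.58 at 3 d, 0.09 and 0.64 at 4 d and 0.00 and 0.45 at 5 d. None reached the lowest mock value, 1.48 TPM, and the replicates of 4 d and 5 d were far apart relative to their mean. The NPA mean was between 3.34% of mock at 2 d and 20.5% at 3 d. GATA23 was called lower at each time, with differences of -1.41, -1.66, -1.16, -1.72, -1.11, -1.53 and -1.64 (SE 0.27). The adjusted p was 0.00799, 0.00207, 0.034, 0.00105, 0.0197, 0.000725 and 0.000285 by limma. The calls at 6 h, 24 h and 3 d depended on single libraries. At 6 h the adjusted p was 0.155 without NPA replicate 2, and 0.0535 and 0.0989 without mock replicate 1 or 2. At 24 h it was 0.148 and 0.185 without NPA replicate 1 or 2 and 0.0597 and 0.409 without mock replicate 1 or 2, and at 3 d 0.227 and 0.0503 without NPA replicate 1 or 2 and 0.146 and 0.0949 without mock replicate 1 or 2. Over 39 alternatives the limma adjusted p ranged from 0.00411 to 0.323 at 6 h, 0.0199 to 0.409 at 24 h and 0.0113 to 0.227 at 3 d, and quantile normalization ended the calls at 24 h (0.0761) and 3 d (0.0531). On the libraries of a time alone the calls at 12 h, 2 d and 5 d were lost as well (0.246, 0.215 and 0.0612). The mean over times was -1.46 ± 0.10 (SE; adjusted p = 6.64e-09 by limma; 107th lowest of 20654), and the exact permutation p was 7.14e-06, the smallest possible. The F test for variation between times gave an adjusted p of 1 by limma.

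**Figure D1:**
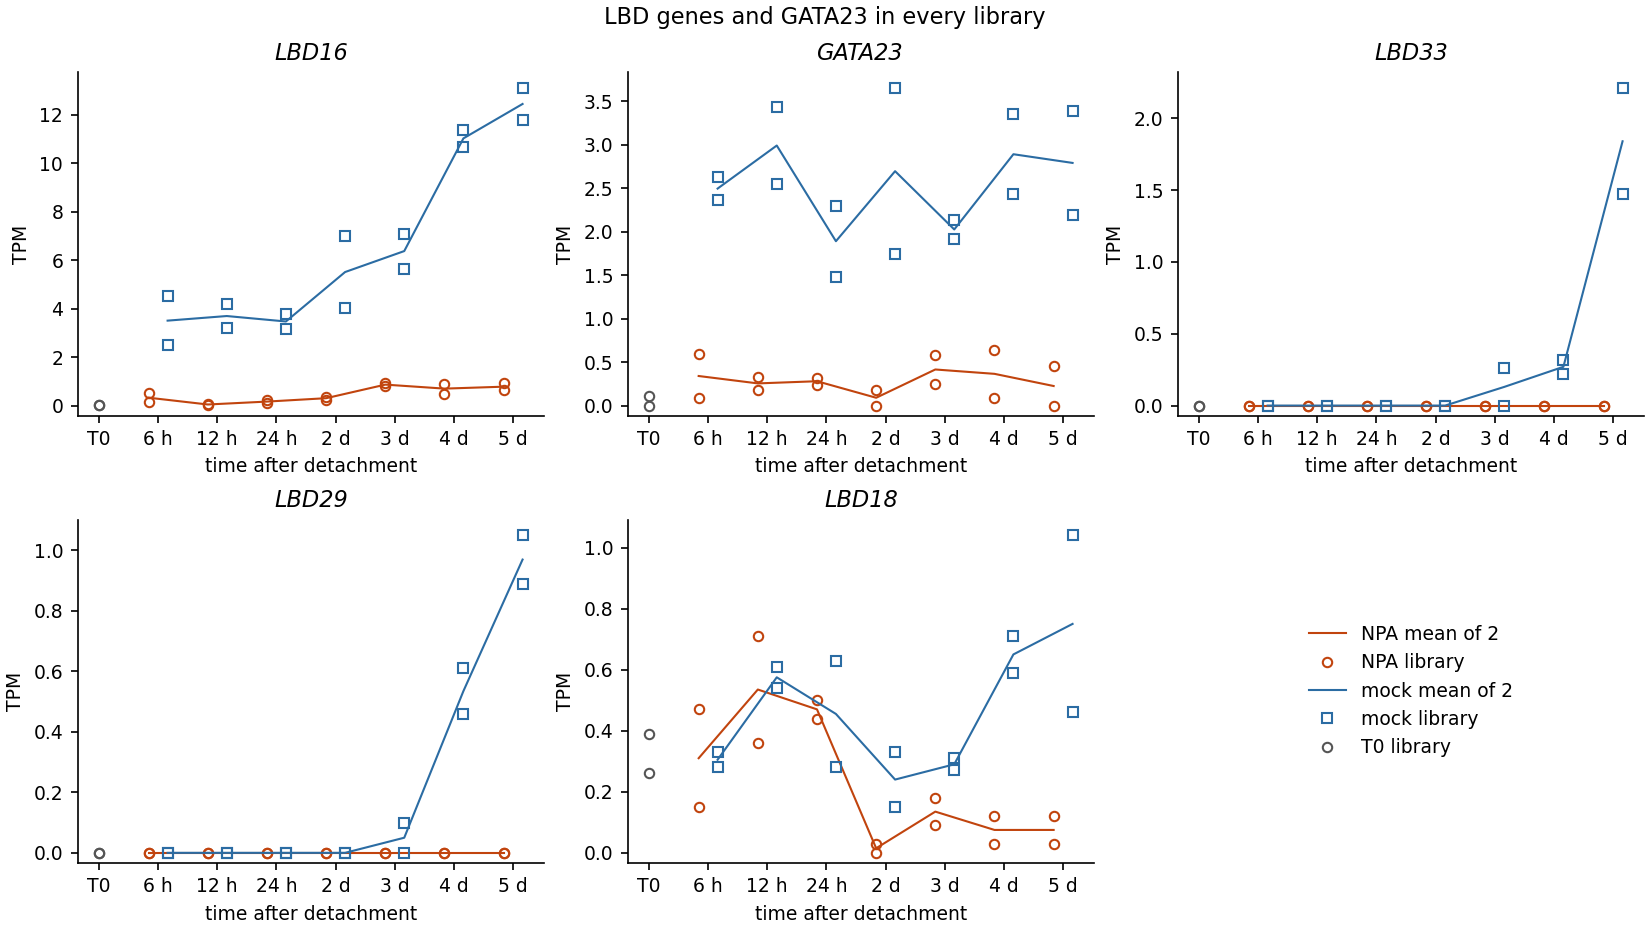
TPM of each of the 5 genes (vertical axis, from 0, its own scale in each panel) against time after detachment (horizontal axis, T0 to 5 d), with a point per library and lines through the means of 2 for NPA and for mock. LBD16 and GATA23 are above T0 in mock from 6 h, LBD29 and LBD33 leave 0 in mock from 3 d, and LBD18 is present at T0.

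LBD33, which in lateral roots pairs with LBD18 to switch on the cell cycle gene E2FA, was listed at 0 in all 14 NPA libraries, in both T0 libraries and in mock through 2 d. In mock it had 0.26 and 0.00 TPM at 3 d, 0.32 and 0.22 at 4 d and 1.47 and 2.21 at 5 d (1.84 ± 0.523 TPM, SD, n = 2). Both mock libraries of 4 d and of 5 d were thus above every NPA and T0 library, and those of 5 d above those of 4 d. The share of all genes apart in this way at both times was not counted. LBD33 passed the filter only because of these 2 libraries of 5 d, so its calls in the filtered model carry no weight. The fit with no filter on low values (27310 genes) is given instead. LBD33 entered that fit through mock alone too, as genes at 0 in every library were left out. Its calls there thus also restate its mock level. There NPA minus mock was -1.49 at 5 d on the log2(TPM + 1) scale (adjusted p = 2.42e-09 by limma), where 14.3% of all genes were called lower, and -0.34 at 4 d (0.0224), where 8.25% were. Mock exceeded T0 by 0.34 at 4 d (adjusted p = 0.00618) and by 1.49 at 5 d (1e-09 by limma), where 31.5% and 35.4% of all genes were called higher, and mock at 5 d exceeded mock at 4 d by 1.15 (3.78e-07 by limma), where 1.96% were. The difference of the 5 d minus 24 h changes, NPA minus mock, was -1.49 (adjusted p = 5.12e-07 by limma), where 4.51% were called lower. The F test gave 1.84e-06 by limma, where 5.78% were called. With the filter the 4 d difference of NPA from mock was not called (adjusted p = 0.1 by limma). The filtered step from 4 d to 5 d in mock was lost with a pseudocount of 0.1 (0.0748 by limma). It was also lost on the compared libraries alone (0.285). The filtered rise of mock over T0 at 4 d was lost in 6 of 39 alternatives (up to 0.568 by limma, with quantile normalization). Most groups of LBD33 had no spread, being at 0. The p-values of the fit with no filter thus rest mostly on mock at 3 d, 4 d and 5 d and describe 6 libraries against values of 0. The exact permutation test of NPA against mock gave a mean difference of -0.29 with p = 0.0278, and 0.0556 without mock 3 d replicate 1. Each is the smallest p that these values allow, because both media were at 0 at most times, so neither grades the evidence.

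LBD29, a lateral root gene downstream of ARF7 and ARF19, had a like course at a lower level. It was listed at 0 in every NPA and T0 library, and in mock had 0.10 and 0.00 TPM at 3 d, 0.46 and 0.61 at 4 d and 0.89 and 1.05 at 5 d (0.97 ± 0.113 TPM, SD, n = 2). The media were apart at 4 d and 5 d, and the mock libraries of 5 d exceeded those of 4 d. How many of all genes were apart in this way was not counted. The exact permutation test of NPA against mock gave -0.24 with p = 0.0278, and 0.0556 without mock 3 d replicate 1, again each the smallest p that the values allow. In a fit with no filter on low values, NPA minus mock was -0.62 ± 0.04 at 4 d (SE; adjusted p = 2.72e-08) and -0.98 at 5 d (adjusted p = 2.91e-11 by limma), with an SE that rests mostly on groups at 0. There 8.25% of all genes were called lower at 4 d and 14.3% at 5 d. LBD29 entered that fit through mock alone, as genes at 0 in every library were left out. In the order of mock levels at 5 d, LBD16 was highest (12.4 TPM), then GATA23 (2.79) and LBD33 (1.84), whose libraries (2.19 to 3.39 and 1.47 to 2.21 TPM) overlapped. LBD29 (0.97) and LBD18 (0.46 and 1.04 TPM) followed and also overlapped.

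LBD18, a factor that activates expansin genes in emerging lateral roots, had the highest T0 level of the 5, at 0.39 and 0.26 TPM. From 6 h to 24 h its libraries ran from 0.15 to 0.71 TPM on NPA (median 0.455) and from 0.28 to 0.63 TPM in mock (median 0.435), and the media overlapped at each of these times. From 2 d on the libraries of the media did not overlap. NPA had 0.03 and 0.00 TPM at 2 d, 0.09 and 0.18 at 3 d, 0.12 and 0.03 at 4 d and 0.03 and 0.12 at 5 d, against 0.15 and 0.33, 0.27 and 0.31, 0.71 and 0.59, and 0.46 and 1.04 TPM in mock. The share of all genes with both NPA libraries below both mock libraries was not counted, so the separation at these 4 times is a description only. The exact permutation test over all 7 times gave a mean difference of -0.26 with p = 0.00405. The fit with no filter called NPA lower at 4 d (-0.62 ± 0.15, SE; adjusted p = 0.0118) and 5 d (-0.68; adjusted p = 0.00374 by limma), where 8.25% and 14.3% of all genes were called lower. At 2 d and 3 d it did not (adjusted p of 0.524 and 0.664 by limma). A change of the NPA effect between times was not called either. The F test gave an adjusted p of 0.173 and the difference of the 5 d minus 24 h changes 0.0702 by limma. Mock over all times was not detectably above T0 (difference 0.13, exact permutation p = 0.458), though the fit with no filter called mock higher than T0 at 5 d (0.38, adjusted p = 0.0463 by limma). The levels are those of a transcript near the lowest TPM values in the tables, and how many reads they stand for is unknown.

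**Figure D2:**
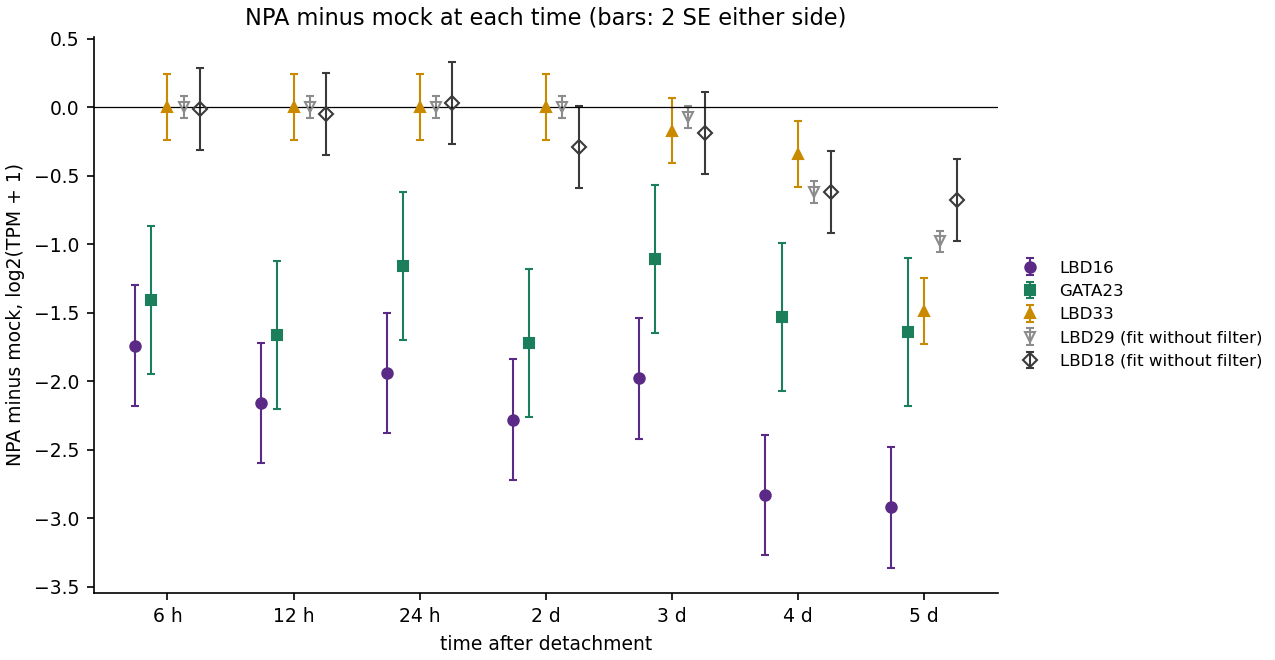
Difference of NPA from mock on the log2(TPM + 1) scale (vertical axis) at each of 7 times (horizontal axis), with bars of 2 SE either side, from the limma model over all libraries (filled) or the same without the filter on low values (open). LBD16 and GATA23 lie below 0 from 6 h, LBD33, LBD29 and LBD18 at 0 or near it at 6 h to 24 h and below it at 4 d and 5 d.

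For LBD16 and GATA23, all 14 NPA minus mock differences were thus called lower, those at 6 h among 141 of 20654 genes. Both genes passed the filter through mock alone, and these calls remained with no filter. All 14 of their mock minus T0 differences were called higher, against a background that depended on scaling. At 5 d 42.4% of all genes were called higher, but 27.7% with TMM factors and 23% with quantile normalization. LBD16 and GATA23 differences kept their direction with both. For the mean over the 7 times the 30.6% of genes called lower were 18.4% with TMM factors. Every NPA library lay below every mock library, whatever the time, in 86 of 20654 genes (0.416%), and LBD16 and GATA23 were of these. Listed at 0 in T0 and in all NPA libraries and at 1 TPM or more in both mock libraries of 5 d were 14 genes (0.0678%), LBD33, WOX11 and PUCHI among them.

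The genes fell into an early and a late pair by the time their mock levels left those of T0. LBD16 and GATA23 group means on the log2(TPM + 1) scale had a Pearson r of 0.94 over the 15 groups, but 0.37 over the 7 mock groups and 0.34 over the 7 NPA groups. LBD29 and LBD33 had an r of 0.94 over 15 groups and 0.92 over the mock groups, where LBD16 had 0.91 with LBD29 and 0.79 with LBD33. These describe groups that share the same libraries and are not tests.

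**Figure D3:**
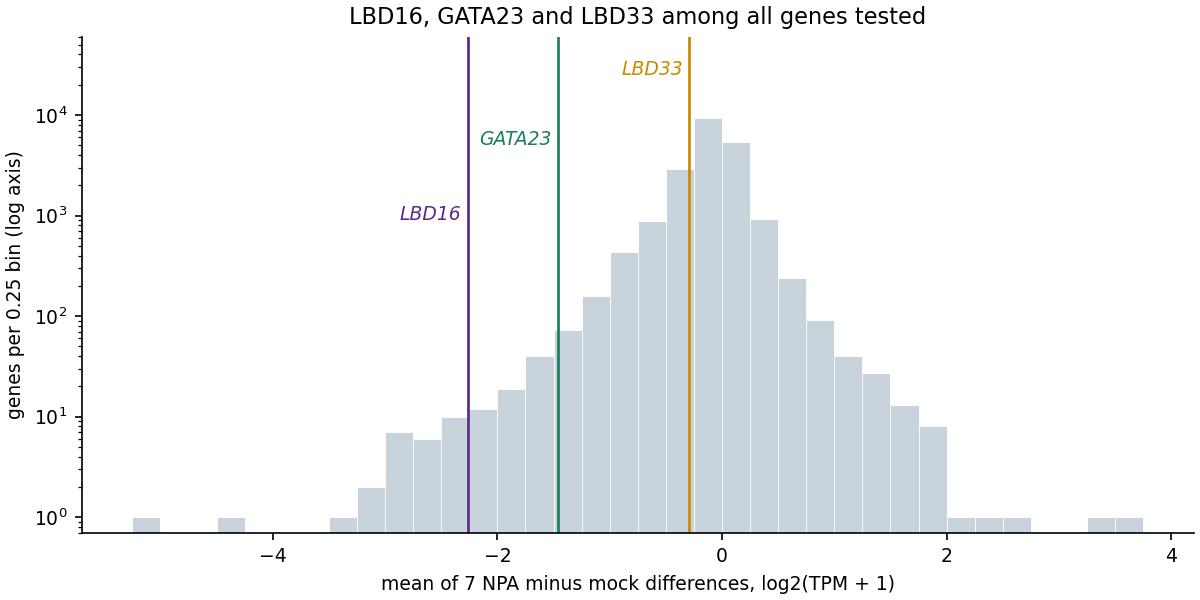
Number of genes (vertical axis, log scale) by the mean of the 7 NPA minus mock differences on the log2(TPM + 1) scale (horizontal axis), for all 20654 genes tested, with lines at LBD16 (-2.26), GATA23 (-1.46) and LBD33 (-0.29). LBD16 and GATA23 lie in the low tail and LBD33, above 0 in mock from 3 d only, nearer the centre.

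Among 12 tested genes, of 13 listed, known to act upstream of these factors, WOX11 had the same absence on NPA as LBD33 but an earlier onset. It was listed at 0 in all NPA and T0 libraries, and had 0.36 and 0.61 TPM in mock at 6 h, 1.07 and 1.54 at 12 h, 9.77 and 7.20 at 4 d and 6.84 and 5.49 at 5 d. NPA minus mock was called from 12 h (-1.20, adjusted p = 0.00228) to 5 d (-2.83, 1.05e-08), and at 6 h was -0.57 and not called (0.34 by limma). WOX11 passed the filter through mock alone, so these calls restate its mock level against values of 0. LBD16 averaged 3.5 TPM in mock at 6 h, and a link between the levels of WOX11 and LBD16 was not tested. ARF7 and ARF19, the activators of LBD16 and LBD29 in lateral roots, were not called on NPA against mock at any time. At 5 d ARF7 averaged 13.5 TPM on NPA and 15.3 TPM in mock, and ARF19 averaged 3.79 TPM on NPA and 4.01 TPM in mock. ARF5, an activator of primordium genes, was called lower on NPA at 4 d (-0.71, adjusted p = 0.016) and 5 d (-1.01, 0.0006 by limma), with 5.10 and 6.75 TPM on NPA against 12.95 and 12.83 in mock at 5 d. IAA28, the repressor above GATA23, was called lower at 4 d (-0.81) and 5 d (-1.01, adjusted p = 0.0032 by limma), at 31.96 and 29.73 TPM on NPA against 65.74 and 60.26 in mock at 5 d. Mock itself was above T0 for IAA28 at 5 d by 2.54 ± 0.22 (SE; adjusted p = 3.88e-08 by limma). IAA14, the repressor of ARF7 and ARF19, was lower in mock at 6 h than in T0 (-3.77 ± 0.58, SE; adjusted p = 0.000112 by limma), where 6.22% of all genes were, but its T0 libraries had 89.34 and 19.95 TPM. Of the 12, none was higher on NPA at any time, and 0, 1, 1, 1, 1, 3 and 3 were lower from 6 h to 5 d, where 0.683%, 1.23%, 1.47%, 3.27%, 5.14%, 9.3% and 15.1% of all genes were. The 1 lower from 12 h to 3 d was WOX11, and the counts at 4 d and 5 d were not far from the background. At 5 d the median was -0.45 against -0.11 over all genes. At 4 d 1 was lower with TMM factors, 2 with quantile normalization and 1 without any 1 of the 4 libraries of that time, ARF5 and IAA28 being the calls lost.

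The 9 tested genes known to act after these factors were called mostly late. From 12 h to 2 d none was called on NPA against mock, then 2 were lower at 3 d, 7 at 4 d and 8 at 5 d, times when 5.14%, 9.3% and 15.1% of all genes were. At 5 d the median was -1.32 against -0.11 over all genes, though PUCHI passed the filter through mock alone. Only 4 of the 9 averaged 1 TPM or more in T0 or on NPA at 5 d, against all 9 in mock at 5 d. PUCHI, EXPA17 and WOX7 were at 0 in T0 and on NPA at 5 d. EXPA17 was also at 0 in both NPA libraries at every other time but 4 d. The filter can keep such genes through mock, so their calls partly restate their mock level. The calls and the median at 5 d thus rest partly on genes near 0 outside mock. At 6 h the auxin importer LAX3 was higher by 0.92 (adjusted p = 0.0453 by limma), and at 5 d the protease gene AIR3 was higher by 0.79, though each call was lost without any 1 of several libraries. The 7 at 4 d were 5 with TMM factors and 3 with quantile normalization, and the 8 at 5 d were 8 with both. Without NPA 4 d replicate 2 or either mock library the count at 4 d was 4, and without mock 5 d replicate 2 the count at 5 d was 5. PUCHI, an AP2 factor of young primordia, was listed at 0 in all NPA and T0 libraries and had 2.37 and 1.22 TPM at 4 d and 3.40 and 5.21 TPM at 5 d in mock. EXPA17, an expansin activated by LBD18, had 0.00 TPM on NPA at 5 d against 16.53 and 21.92 TPM in mock, and its mock rise over T0 was called at 5 d (4.33 ± 0.19, SE; adjusted p = 9.05e-12 by limma). Expansins loosen cell walls, and EXPA14, another LBD18 target, had 0.11 and 0.19 TPM on NPA against 1.32 and 2.56 TPM in mock at 5 d. E2FA, the target of the LBD18 and LBD33 pair, had 2.69 and 3.42 TPM on NPA against 4.97 and 5.73 TPM in mock at 5 d (-0.65, adjusted p = 0.000491 by limma). WOX7, a homeobox gene of lateral root formation, had 0.00 TPM in both NPA libraries against 8.71 and 6.94 TPM in mock at 5 d. XTH23, a wall-modifying enzyme gene, had 3.26 and 4.09 TPM on NPA against 11.26 and 14.51 TPM in mock.

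Genes of the general auxin response moved in both directions, against 0.881%, 0.852%, 0.421%, 0.421%, 0.6%, 0.605% and 2.04% of all genes called higher and 0.683%, 1.23%, 1.47%, 3.27%, 5.14%, 9.3% and 15.1% called lower on NPA from 6 h to 5 d. Of 9 tested, 1, 1, 1, 1, 3, 2 and 4 were higher and 4, 3, 3, 1, 1, 2 and 2 lower on NPA from 6 h to 5 d, the 2 lower at 5 d being near the background, and the medians were -0.87, -1.21, -1.09, 0.04, 0.97, 0.69 and 0.68. With TMM factors and with quantile normalization no gene was higher at 2 d, and the counts at the other times differed by at most 1 gene. Single libraries set several of these counts. Without mock 24 h replicate 2 none was lower at 24 h, without NPA 3 d replicate 1 or mock 3 d replicate 2 none was higher at 3 d, and without NPA 4 d replicate 2 none was higher at 4 d. Without NPA 5 d replicate 2 or mock 5 d replicate 2 the 4 higher at 5 d were 2. IAA19, an Aux/IAA gene, had 1.02 and 1.33 TPM on NPA against 13.19 and 17.36 TPM in mock at 6 h (-2.90 ± 0.53, SE; adjusted p = 0.00455 by limma), a call lost without NPA 6 h replicate 1 or mock 6 h replicate 2. IAA5, of the same family, was lower at 6 h, 12 h and 24 h, with -2.72 ± 0.32 on the log2(TPM + 1) scale at 12 h (SE; adjusted p = 7.59e-05 by limma). GH3.3, an enzyme gene that conjugates auxin, had 34.06 and 36.08 TPM on NPA against 1.81 and 2.50 TPM in mock at 6 h (3.52, adjusted p = 2.04e-06), and 1.93 and 3.58 TPM on NPA against 20.93 and 13.06 TPM in mock at 5 d (-2.26, adjusted p = 1.83e-05 by limma). GH3.2, of the same kind, was called lower from 2 d and had 0.01 and 0.03 TPM on NPA against 24.90 and 17.55 TPM in mock at 5 d. LBD16 and GATA23 were thus lower on NPA at times when GH3.3 was higher and when it was lower.

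**Figure D4:**
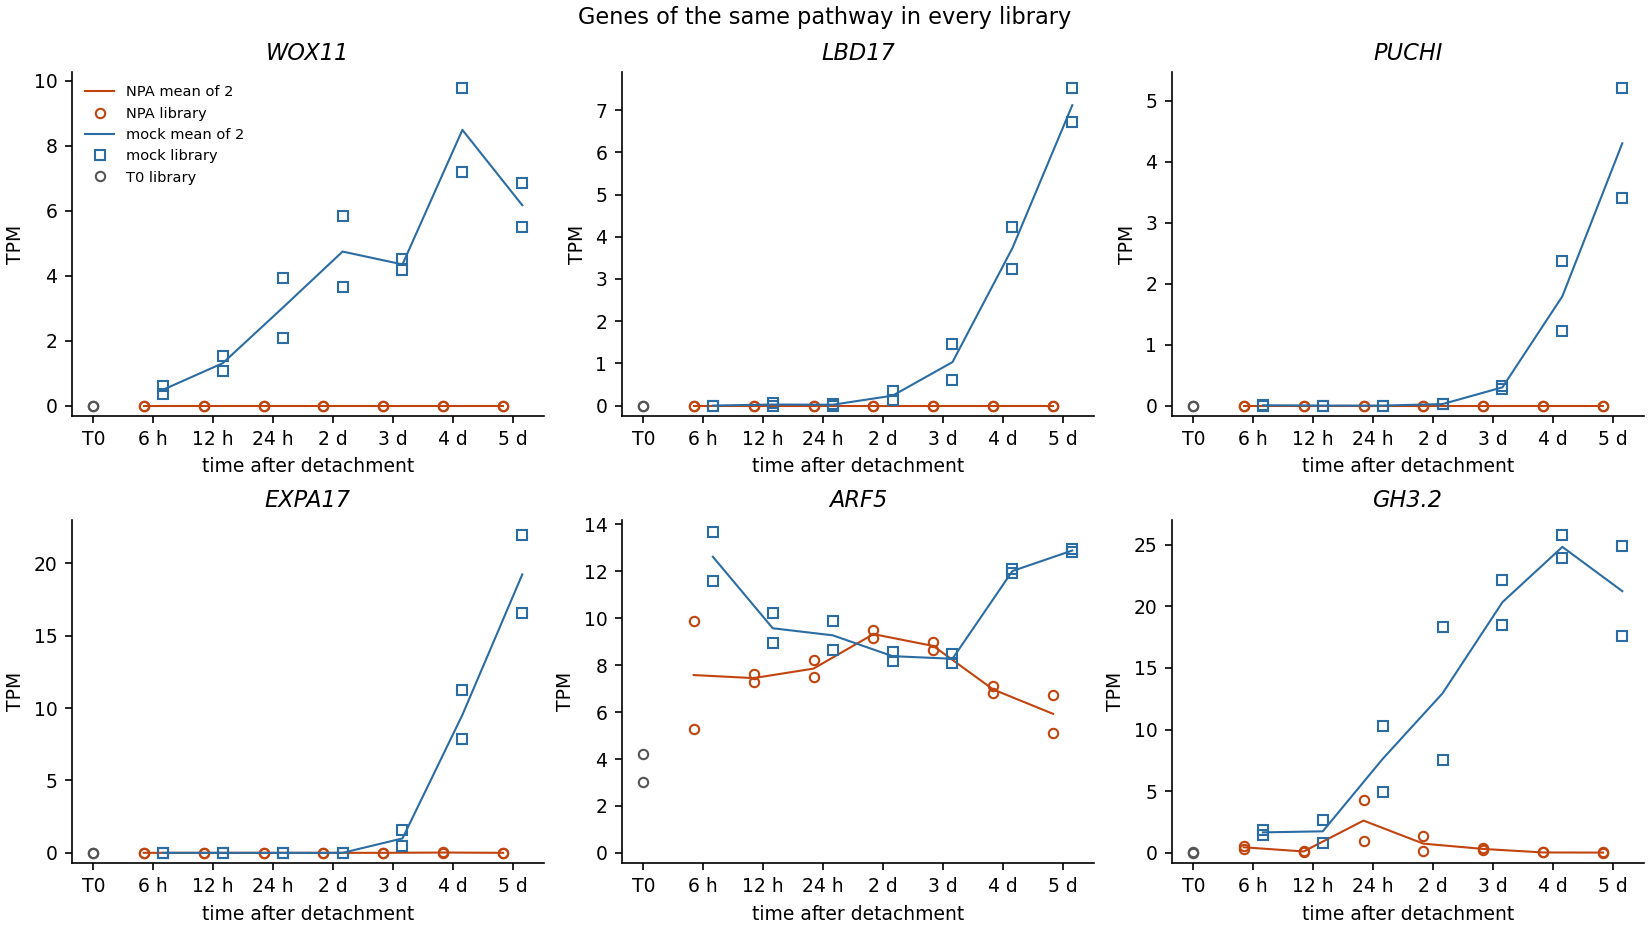
TPM (vertical axis, from 0, its own scale in each panel) against time after detachment (horizontal axis) for WOX11 and ARF5 (upstream), LBD17 (same family), PUCHI and EXPA17 (downstream) and GH3.2 (auxin response), with a point per library and lines through the means of 2 for NPA and for mock. WOX11, LBD17 and PUCHI are at 0 in all NPA libraries, and ARF5 is present in both media and differs at 4 d and 5 d.

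In the rest of the LBD family, 14 of 36 genes were tested, and 0, 0, 2, 1, 3, 3 and 7 were lower and none higher on NPA from 6 h to 5 d, the median at 5 d being -0.32. Of all genes 0.683%, 1.23%, 1.47%, 3.27%, 5.14%, 9.3% and 15.1% were lower at these times. At 5 d 5 were lower and 1 higher with TMM factors (LBD37 higher) and with quantile normalization (LBD26 higher). No other tested LBD gene was called at 6 h or 12 h, when LBD16 was. Genes that failed the filter could not be called, and these LBD16 calls were lost on the libraries of a time alone. LBD17, whose gene lies 3363 bases beyond LBD16 on the opposite strand (TAIR10.1, chromosome 2, 17668701 to 17669836), was listed at 0 in all NPA and T0 libraries and had 4.22 and 3.24 TPM at 4 d and 6.71 and 7.52 TPM at 5 d in mock. Its difference at 5 d was -3.02 ± 0.15 (SE; adjusted p = 2.13e-10 by limma). LBD17 passed the filter through mock alone, so this call and its place among the 7 at 5 d restate its mock level. Of the 36 genes, 14 averaged 1 TPM or more in mock at 5 d, against 8 in T0 and 8 on NPA at 5 d. Others of the 7 may thus also have passed through mock, which limits the comparison with the share of all genes. LBD4, a gene of vascular stem cells, was lower from 24 h on, with 0.99 and 0.62 TPM on NPA against 7.21 and 7.19 TPM in mock at 5 d. LBD3, LBD15 and LBD36 were lower at 5 d only, LBD30 at 4 d and 5 d and LBD41 at 3 d and 5 d. The 4 LBD genes with the highest group means were LBD37 (101.5 TPM in mock at 24 h), LBD38 (40.86 TPM in mock at 3 d), LBD39 (40.3 TPM in T0) and LBD21 (34.26 TPM on NPA at 12 h), and of these LBD38 was lower at 24 h (-1.17, adjusted p = 0.014 by limma), a call lost without NPA 24 h replicate 1 or either mock library. LBD19, 5136 bases from LBD18, averaged at most 0.16 TPM in any group. RSEM shares reads that match several family members between them, so low values of close relatives are uncertain.

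Among 28 other GATA genes 25 were tested, and 1, 1, 0, 1, 1, 5 and 8 were lower and none higher on NPA from 6 h to 5 d, the median at 5 d being -0.31. Of all genes 0.683%, 1.23%, 1.47%, 3.27%, 5.14%, 9.3% and 15.1% were lower from 6 h to 5 d, and 10.4% at 5 d with TMM factors. With TMM factors the GATA count at 5 d thus lay near the background. The 8 at 5 d were 3 with TMM factors, 5 with quantile normalization and 2 without mock 5 d replicate 2, and the 5 at 4 d were 3 with TMM factors, 2 with quantile normalization and 3 without either NPA library or mock 4 d replicate 1. GATA15, of the B-class to which GATA23 also belongs, was the gene called at 6 h and 12 h, with -0.48 and -0.55, the first lost with both scalings and the other with quantile normalization. The changes were small beside those of GATA23, the largest at 5 d being -1.06 for GATA12. The 4 highest, GATA8, GATA1, GATA4 and GATA21, were not called on NPA against mock at any time.

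Markers of other cell types differed between the media as well. The summed TPM of 5 cambium and procambium markers was 31.5 to 39.1 on NPA against 75.5 to 76.6 in mock at 6 h, and 34.7 to 48.0 on NPA against 103.7 to 104.7 in mock at 5 d, with 27.5 to 46.3 in T0. All 5 were present in every group, and 3, 2, 1, 3, 2, 4 and 5 of them were lower on NPA from 6 h to 5 d. Leaving out mock replicate 2 of 12 h or of 24 h made the count of that time 0, and leaving out NPA 2 d replicate 1 made that of 2 d 1. The 6 xylem markers summed to 9.17 to 23.4 TPM on NPA against 77.8 to 104.4 TPM in mock at 5 d. Their sums on NPA already lay below both mock libraries at 6 h (97.28 to 139.5 against 141 to 147.4 TPM), 12 h (134 to 134.7 against 145.9 to 166.9) and 24 h (65.27 to 95.58 against 125.5 to 145). None of the 6 was called lower at these times, and all 6 were from 2 d on (3 to 6 with the other scalings, and 2 without mock 2 d replicate 1 at 2 d or without NPA 3 d replicate 2 or mock 3 d replicate 1 at 3 d). The 3 root cap markers were listed at 0 on NPA from 24 h, summed to at most 0.09 TPM in any library before 4 d, and reached 0.46 to 1.78 TPM in mock at 5 d, and the 4 root endodermis markers summed to 14.8 to 14.96 TPM on NPA against 24.9 to 28.2 TPM in mock at 5 d, 3 of the 4 lower. None of the 6 mesophyll markers was called at any 1 time. The 4 shoot meristem markers summed to at most 1.02 TPM in any library, none of the 4 stomatal lineage markers was called, and 1 of the 4 phloem markers was lower at 3 d, 4 d and 5 d. LBD16 and GATA23 thus differed at the times when cambium markers did, and LBD33, LBD29 and LBD18 at times when xylem markers were called too. The part of these cell types in the results was not tested.

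**Figure D5:**
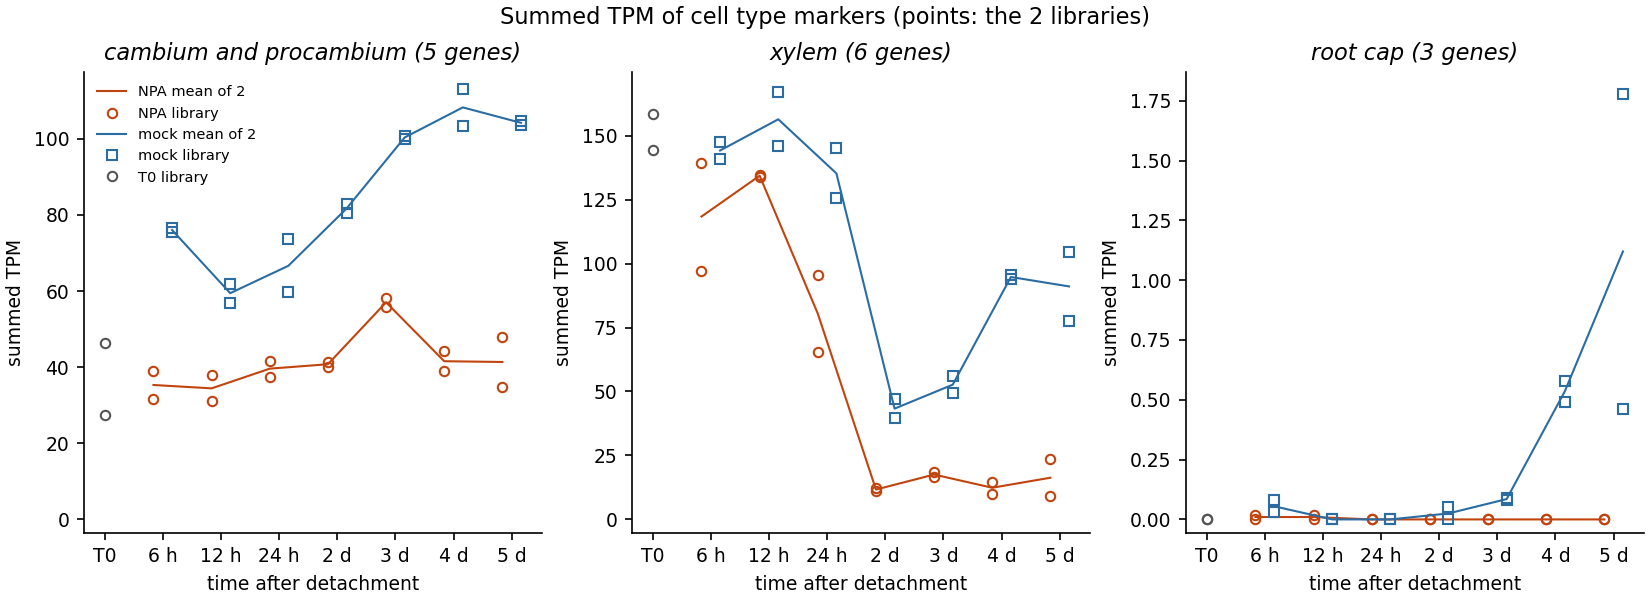
Summed TPM (vertical axis, from 0, its own scale in each panel) of cambium and procambium, xylem and root cap markers against time after detachment (horizontal axis), with a point per library and lines through the means of 2 for NPA and for mock. Cambium and xylem sums on NPA lie below both mock libraries at all 7 times, and root cap sums are at most 0.09 TPM before 4 d and highest in mock at 4 d and 5 d.

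By Pearson r of the 15 group means on the log2(TPM + 1) scale over 8573 tested genes with a symbol, the genes most like LBD16 were BRXL4 (0.967), CEL3 (0.962), EDA21 (0.956), AGL15 (0.955) and GPK1 (0.953). CEL3, a cellulase gene, averaged 0.02 TPM on NPA and 12.7 TPM in mock at 5 d, while BRXL4 averaged 10.2 TPM on NPA and 27.3 TPM in mock. Most like GATA23 were the expansin gene EXPA4 (0.969), MAPKKK20 (0.946) and XTH20 (0.943), and most like LBD33 were SCRL26 (0.999), CYP702A5 (0.995) and iqd15 (0.989). The likeness to LBD33 rests on the few groups in which it was above 0, and all these values come from the same 30 libraries.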

How the data were processed

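The authors deposited TPM values in 2 tables, 1 per medium, each holding the same T0 columns, and these entered once. Reads went through STAR 2.7.2b, RSEM 1.3.2 and Trim Galore 0.5.0, with build TAIR10, per the submitters' processing notes (no order given), and their settings and the strandedness are not given in the sources used here. Columns sum to 1000000 TPM, so a gene's value also moves with the other genes of its library. Groups came from sample titles, and none of 435 library pairs were identical.

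TPM was taken as log2(TPM + 1), filtered at 1 TPM in 2 libraries (20654 genes) and fitted with limma's lmFit and its eBayes with a trend (limma 3.58.1, R 4.3.3), all 30 libraries in 1 model with a mean per group (residual df 15, prior df 2.33). Tests were two-sided, with Benjamini-Hochberg adjustment over all genes within a comparison. Exact permutation tests, two-sided, used the same scale (5 tests in each of 2 comparisons, raw p). Model and permutation code were tested on simulated data. LBD33, LBD29 and LBD18 are given from the fit with no filter. The alternatives tried were a pseudocount of 0.1 or of 5, the filter dropped or set to a mean of 5 TPM, TMM factors (computed on TPM), quantile normalization, rescaling without organelle genes, no trend, the compared libraries alone, a replicate block and each library left out.

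The genes and lists were chosen with earlier results of these data known. Named genes were the 5 genes, up to 4 per pathway list with the largest called change and any a count singles out, the 4 other LBD and 4 other GATA genes of highest group mean, and the genes of most similar pattern; AIR3, ARF7, ARF19, E2FA, EXPA14, LAX3, GATA12, GATA15, LBD3, LBD4, LBD15, LBD17, LBD19, LBD26, LBD30, LBD36 and LBD41 were named after their values were seen. Of 10 downstream genes 9 matched the annotation and were used. Of 37686 genes 37390 matched RefSeq TAIR10.1, from which the sequences were read by locus identifier. Same-numbered mock and NPA libraries deviated from their group means with correlations across genes of -0.57, -0.58, -0.36, 0.33, 0.05, -0.14 and -0.14 from 6 h to 5 d, so replicate numbers were not used to pair them.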

Additional observations from a re-analysis of the deposited data

Results flagged for a closer look

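LBD33 was singled out because tests of its NPA effect between times passed the threshold. The moderated F test of NPA minus mock between the 7 times gave an adjusted p of 6.3e-05 by limma. The difference of the 5 d minus 24 h changes, NPA minus mock, gave an adjusted p of 2.08e-05 by limma. At 5 d LBD33 was listed at 0 in both NPA libraries against 1.47 and 2.21 TPM in mock, and at 24 h it was listed at 0 in the libraries of both media. LBD33 passed the filter only through mock at 5 d, so both tests restate that group's level. In the fit with no filter they gave 1.84e-06 (5.78% of all genes called) and 5.12e-07 by limma (4.51% called lower). LBD33 entered that fit through mock alone as well, so these values restate the same mock level.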

How the results depend on the processing

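Depth is unknown, values near 0 TPM cannot be given a counting error, and 2 libraries a group limit every test. Of LBD16, GATA23 and LBD33, called NPA against mock differences numbered 15 (1 of them of LBD33, which passed the filter only through mock at 5 d), against 6 on the compared libraries alone and 14 to 16 without 1 library. Called mock against T0 differences numbered 16, against 10 on the compared libraries alone and 15 to 16 without 1 library. Called NPA against T0 differences numbered 3, against 5 with a pseudocount of 0.1, 0 with a pseudocount of 5, 0 with quantile normalization, 1 on the compared libraries alone and 2 to 3 without 1 library. For 5 d against 24 h the count of 3 became 5 with no filter (3 to 4 without 1 library), both added calls being of LBD29, for the mean and F tests 4 became 7 with no filter (4 to 5), and for successive steps 1 became 2 with a pseudocount of 5 and 3 with no filter (1 without any 1 library). The exact permutation p of mock against T0 ranged from 0.00952 to 0.0667 without 1 library for LBD16 and for GATA23, the higher without either T0 library. That of NPA against mock ranged from 0.00926 to 0.0556 for LBD29 and for LBD33. The 0.0556 was the smallest p that their values without mock 3 d replicate 1 allow. The GATA23 difference of NPA 5 d from NPA 24 h, -0.09 and not called, ranged from -0.36 to 0.18 without 1 library, 0.18 without NPA 5 d replicate 1. None of the 5 genes passed a mean of 5 TPM, so that filter gave no value. The replicate numbers did not pair the libraries, and with a replicate block the same counts were 15 and 16 and no call of these genes changed. The cause of these changes was not tested. The share of calls that were higher moved with scaling: at 5 d it was 11.9% for NPA against mock (34.4% with TMM factors, 37.5% with quantile normalization) and 79.6% for mock against T0 (58.3% and 45.1%).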
